A study of Homo sapiens with 27 samples.

Results

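The transcriptome of MDA-MB-231 cells treated with 5-fluorouracil (5-FU) and Compound Kushen Injection (CKI) together was compared with that of cells treated with 5-FU alone. The cells are an established line from a human breast adenocarcinoma and have a mesenchymal character. The 6 libraries of the comparison were chosen by their labels alone, from 27 libraries in the series, and all 6 came from this line. 3 libraries were from CKI plus 5-FU and 3 from 5-FU alone.

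The series holds unstranded paired-end RNA-seq from MDA-MB-231 and from A431, an epidermoid carcinoma line, in 9 groups of 3 replicates. 5-FU was given at 10 ug/ml and CKI at 1.0 mg/ml, and every MDA-MB-231 library used here was labelled 48 h. The other 6 MDA-MB-231 libraries were untreated cells and cells given CKI without 5-FU, and they served as the reference for what CKI did when 5-FU was absent. The only vehicle control of the series was in A431. MDA-MB-231 had none, so effects of CKI and of its vehicle cannot be told apart here. The labels do not say whether replicates were separate cultures, so the p-values measure only the spread between these libraries, which may be technical.

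5-FU is a fluorinated pyrimidine that is converted inside the cell into a nucleotide that blocks thymidylate synthase and into nucleotides that enter RNA and DNA. Cells exposed to it slow or stall in DNA synthesis, raise damage signalling, and often raise inflammatory cytokines. CKI is a mixture of plant secondary metabolites from the roots of Kushen and Baituling, rich in quinolizidine alkaloids such as matrine and oxymatrine.

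Total counts were between 19977279 and 21315632 in the 6 libraries and between 19871048 and 22809339 over the 12 libraries of the line. Levels below are in CPM, the read count scaled to a common library total after trimmed mean of M values (TMM) adjustment, and 3 counts correspond to 0.136 to 0.159 CPM over the 12 libraries. CPM does not correct for gene length, so it compares 1 gene between libraries and not different genes. Replicates of 5-FU and of CKI plus 5-FU correlated at 0.994 to 0.995 over genes. Untreated replicate 1 stood apart from the other untreated libraries, with correlations of 0.978 and 0.981. Many levels of untreated cells are therefore given library by library. Fold changes against untreated cells and interactions also rest on this replicate, and some are given without their libraries. The 8 mesenchymal markers of the line were present, VIM at 994, 1021 and 1059 CPM with 5-FU and 722, 741 and 741 with CKI plus 5-FU, and none of them passed the fold threshold by edgeR or DESeq2 (4 had an unadjusted p under 0.05). Their summed level was 3516 to 3618 CPM with 5-FU and 3016 to 3053 with CKI plus 5-FU. ESR1 and PGR, the hormone receptors that the line lacks, reached at most 0.194 CPM in the 6 libraries. The list of 9 luminal and receptor markers that holds them summed to 1116 to 1161 CPM with 5-FU and 870 to 917 with CKI plus 5-FU. Of its 6 tested members 5 were lower at the adjusted p alone. TFF1 was called lower (log2 fold change -1.08, and between -1.36 and -0.87 over the alternatives). Of the 10 markers of A431 and squamous cells, 5 had enough counts to be tested, 2 were lower, 1 (EGFR, which MDA-MB-231 also expresses) was higher, and their part in the results was not tested. In a culture, fewer cells of one state and less of an RNA per cell cannot be told apart.

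In 5-FU-treated cells CKI lowered many chemokine and interferon-stimulated genes and several other cytokine genes, lowered a set of replication and cell cycle genes, and raised xenobiotic metabolism, antioxidant, sterol synthesis and metallothionein genes together with some immediate early genes, FOS among them. Of 13999 genes tested, 1368 were called (9.77%). A call needed an adjusted p (edgeR, quasi-likelihood, Benjamini-Hochberg) under 0.05 together with a log2 fold change beyond 1 in either direction. 736 genes were higher with CKI plus 5-FU (5.26% of those tested) and 632 were lower (4.51%). The adjusted p alone was met by 3626 genes that were higher (25.9%) and 3433 that were lower (24.5%), so a shift of small size was common. Called genes spanned log2 fold changes from -4.92 to 6.43, with 95 above 2 and 76 below -2. In 1351 of the 1368 called genes the 3 CKI plus 5-FU libraries lay entirely on one side of the 3 5-FU libraries. The median log2 fold change over all genes tested was 0.0055, against which the medians of gene lists below are read.

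**Figure D1:**
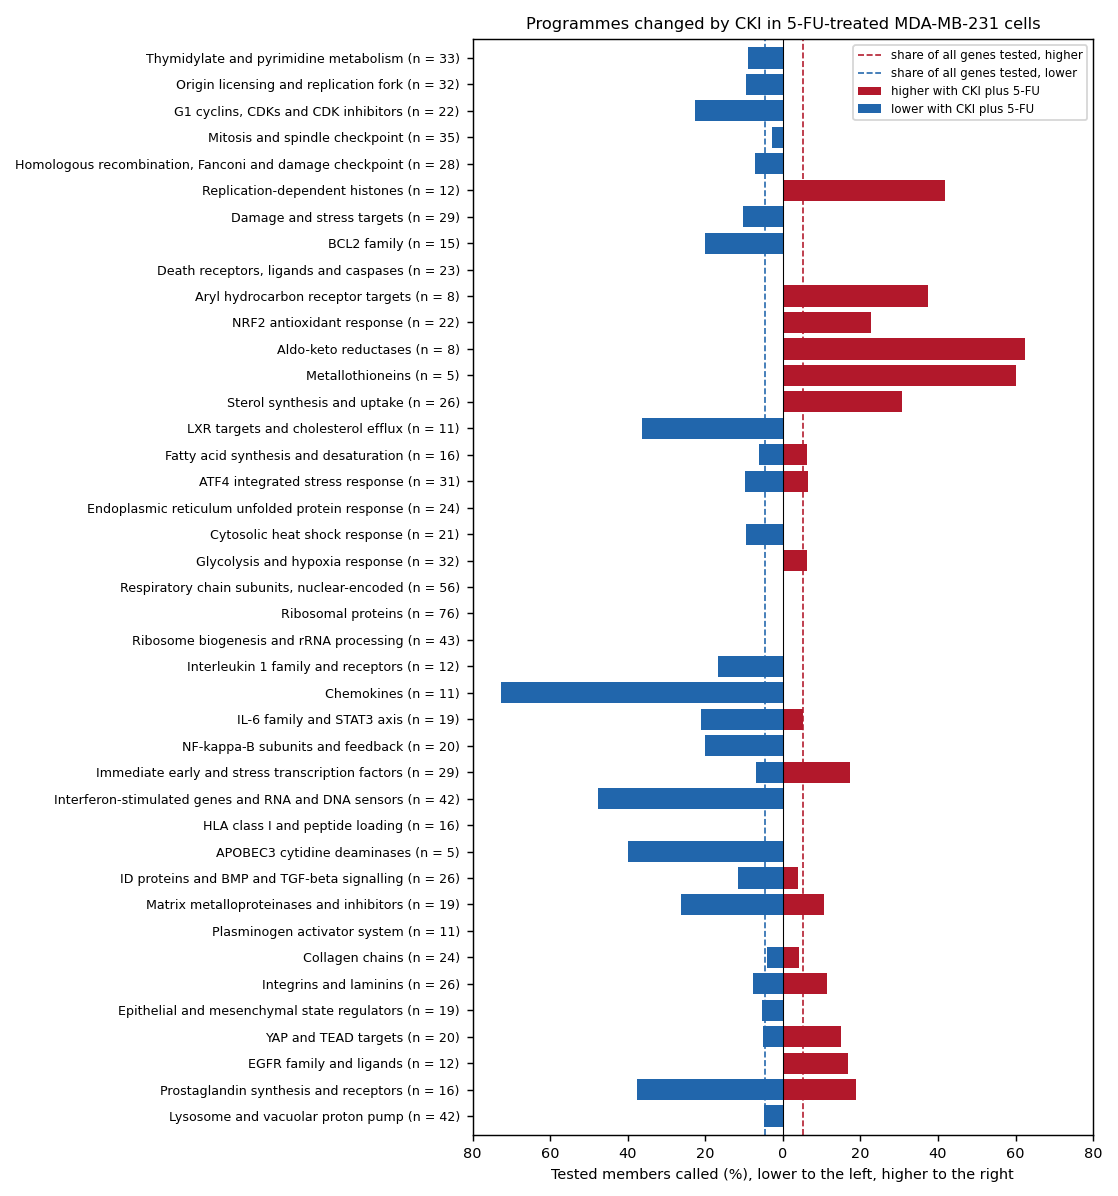
Percent of tested members called lower (bars to the left) or higher (bars to the right) with CKI plus 5-FU than with 5-FU, for the 41 functional gene lists, each with its number of tested members. Dashed lines mark the shares over all genes tested, 4.51% lower and 5.26% higher. Chemokines reach 72.7% lower and interferon-stimulated genes 47.6% lower, while aldo-keto reductases reach 62.5% higher.

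Chemokines had the largest share of members called lower of the 41 lists. 5-FU-treated cells expressed granulocyte colony-stimulating factor, interleukin 8 and interleukin 6 at levels above those of every untreated library, and all 3 were lower when CKI was present. Among 11 tested chemokines 8 were lower and none was higher (72.7% against 4.51% of all genes), with a median log2 fold change of -1.34. The 3 members outside the call were CXCL2 (log2 fold change -0.41), CCL2 (-0.85) and CXCL16 (0.08).

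CSF3, which encodes granulocyte colony-stimulating factor (chr17:38171614-38174066, plus strand, GRCh37), stood at 48.8, 54 and 50.4 CPM in the 5-FU libraries and 4.09, 3.44 and 4.22 in the CKI plus 5-FU libraries. The 2 groups were far apart, and the fall was 13-fold (log2 fold change -3.70, SE 0.14, adjusted p = 6.2e-09). Untreated cells held 5.03, 6.53 and 4.54 CPM and CKI-treated cells 1.53, 2.21 and 1.82, so the combination lay just below the untreated level. CXCL8, the neutrophil chemoattractant interleukin 8 (chr4:74606236-74609433, plus strand), was at 648, 678 and 711 CPM with 5-FU and 201, 206 and 194 with CKI plus 5-FU (log2 fold change -1.76, SE 0.081, adjusted p = 1.9e-08). Its combination level remained above the 96.7, 122 and 115 CPM of untreated cells. IL6, the pleiotropic cytokine that signals through STAT3 (chr7:22765503-22771621, plus strand), was at 195, 195 and 209 CPM with 5-FU and 84.4, 78.1 and 78.4 with the combination (log2 fold change -1.31, SE 0.073, adjusted p = 8.8e-08). In untreated cells IL6 stood at 95.2, 114 and 110 CPM, above every combination library.

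CCL28, a mucosal chemokine, went from 10.4, 11 and 11 CPM to 3.71, 3.75 and 4.03 (log2 fold change -1.50, adjusted p = 2.7e-07). The interferon-inducible CXCL11 was at 3.01, 2.23 and 2.57 CPM with 5-FU and 0.951, 1.13 and 0.873 with CKI plus 5-FU (log2 fold change -1.40, adjusted p = 3.7e-04). CXCL10, of the same class, was near the detection floor, at 18, 17 and 15 counts with 5-FU and 5, 2 and 8 with the combination (log2 fold change -1.73). CXCL1, CXCL3, CX3CL1 and CCL26 also fell, with log2 fold changes of -1.29, -1.21, -1.34 and -1.38.

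Other cytokines and their receptors split. CSF2, the granulocyte-macrophage factor, fell from 71.6, 81.2 and 81.7 to 33.8, 37.4 and 34.9 CPM (log2 fold change -1.14, adjusted p = 1.6e-06). IL6R, the ligand-binding chain of the interleukin 6 receptor, fell from 4.17, 4.23 and 2.66 to 0.761, 0.949 and 1.12 CPM (log2 fold change -1.96, adjusted p = 4.7e-05). The shared receptor chain IL6ST (0.20) and STAT3 itself (-0.13) showed small log2 fold changes. IL24, an interleukin 10 family cytokine, was the one member of its list of 19 called higher (5.26%, equal to the share of all genes). In that list 4 were called lower (21.1% against 4.51%), and at the adjusted p alone 5 were higher and 6 lower. IL24 rose from 23.2, 25.9 and 24.8 to 57.2, 63.8 and 61.7 CPM (log2 fold change 1.31, adjusted p = 8.1e-07). In the interleukin 1 family 2 of 12 members were called lower (16.7% against 4.51%), and the ligands IL1A and IL1B were at log2 fold changes of -0.21 and -0.51. The pair comprised IRAK3, an inhibitor of receptor signalling (log2 fold change -1.11, adjusted p = 2.0e-05), and IL1RL1, the interleukin 33 receptor. IL1RL1 rested on 14, 19 and 22 counts with 5-FU and 5, 7 and 12 with the combination, and its call was lost without 5-FU replicate 2 or 3 or without CKI plus 5-FU replicate 1 or 2 (log2 fold changes of -1.17, -1.04, -0.97 and -1.09).

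NF-kappa-B is a transcription factor family that can induce many cytokine genes and its own feedback inhibitors. Its activity was not measured here. All 20 tested members of the list had a log2 fold change below 0, with a median of -0.67. 18 met the adjusted p alone (90% against 24.5% of all genes), but only 4 were lower by more than the fold threshold (20% against 4.51%). TNFAIP3, the ubiquitin-editing inhibitor A20 (chr6:138188351-138204451, plus strand), was at 10.6, 14.7 and 16.1 CPM in untreated cells, 66.6, 62.5 and 60.4 with 5-FU and 19.5, 20.3 and 16.6 with CKI plus 5-FU (log2 fold change -1.75, SE 0.13, adjusted p = 7.1e-07). TRAF1, a signalling adaptor induced by the pathway, was at 21.3, 22.5 and 23.7, then 125, 124 and 123, then 49.4, 56.3 and 53 CPM in the same order of groups (log2 fold change -1.23, SE 0.069, adjusted p = 9.7e-08). Both genes thus stayed above untreated cells in the combination. SOD2, the mitochondrial superoxide dismutase, fell from 320, 322 and 337 to 126, 137 and 136 CPM (log2 fold change -1.30, adjusted p = 1.2e-07). TNFAIP2 fell from 154, 149 and 136 to 72, 62 and 67.6 CPM (log2 fold change -1.12, adjusted p = 1.1e-04). The subunits NFKB1, NFKB2, REL, RELA and RELB had log2 fold changes of -0.69, -0.64, -0.80, -0.49 and -0.85, all short of the threshold.

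The promoter of CXCL1 is shown because it holds a kappa-B match close to the start of a chemokine that fell, and it was chosen after its values were seen. It is the RefSeq window of 300 bases from 250 before to 50 after the gene start (GRCh38.p14, chr4:73869143-73869442, plus strand), printed 5′ to 3′ along the gene. Capitals mark the kappa-B consensus, which was matched on both strands and overlaps itself in 2 registers, the first starting 79 bases before the gene start.
CXCL1: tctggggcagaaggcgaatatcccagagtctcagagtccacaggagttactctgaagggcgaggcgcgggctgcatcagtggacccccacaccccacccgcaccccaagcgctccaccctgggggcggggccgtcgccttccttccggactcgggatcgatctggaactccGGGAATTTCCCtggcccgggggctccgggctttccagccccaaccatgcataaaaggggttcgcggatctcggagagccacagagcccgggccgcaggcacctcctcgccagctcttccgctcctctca
The same consensus was found in 10.8% of 27305 promoters, in 5 of 8 tested chemokine members with a promoter in the table and in 7 of 17 such members of the NF-kappa-B list. A match describes letters in the window and says nothing of whether a factor bound there.

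Prostaglandin genes changed in both directions. 6 of 16 tested members were lower (37.5% against 4.51% of all genes) and 3 were higher (18.8% against 5.26%). PTGS2, the inducible cyclooxygenase (chr1:186640923-186650054, minus strand), was at 33, 34.6 and 34.4 CPM with 5-FU and 9.66, 11 and 10.7 with the combination (log2 fold change -1.70, SE 0.085, adjusted p = 3.9e-08), and untreated cells held 8.58, 7.28 and 7.08 CPM. PTGES, the terminal prostaglandin E synthase, fell from 64, 57.3 and 61.6 to 16.3, 15.6 and 18 CPM (log2 fold change -1.88, SE 0.094, adjusted p = 3.9e-08). Its combination level was below the 20.9, 25.4 and 26.4 CPM of untreated cells. The prostaglandin transporter SLCO2A1 (11, 20 and 21 counts with 5-FU, 3, 7 and 4 with the combination) and the receptor PTGER1 (19, 17 and 11 and 4, 6 and 4 counts) were lower too, at log2 fold changes of -1.89 and -1.74. PTGER4 (log2 fold change -1.50) and the constitutive cyclooxygenase PTGS1 (-1.31) completed the lower members. Higher members were the phospholipase PLA2G4A, which releases arachidonic acid (log2 fold change 1.08, adjusted p = 1.3e-04), the receptor PTGER2 (log2 fold change 1.12, adjusted p = 8.3e-04), and the degrading enzyme HPGD. The HPGD call (log2 fold change 1.07, adjusted p = 0.04) was lost without CKI plus 5-FU replicate 3 or without 5-FU replicate 1 or 3, at log2 fold changes of 0.68, 0.74 and 1.03, and with the replicate block, at 1.06.

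**Figure D2:**
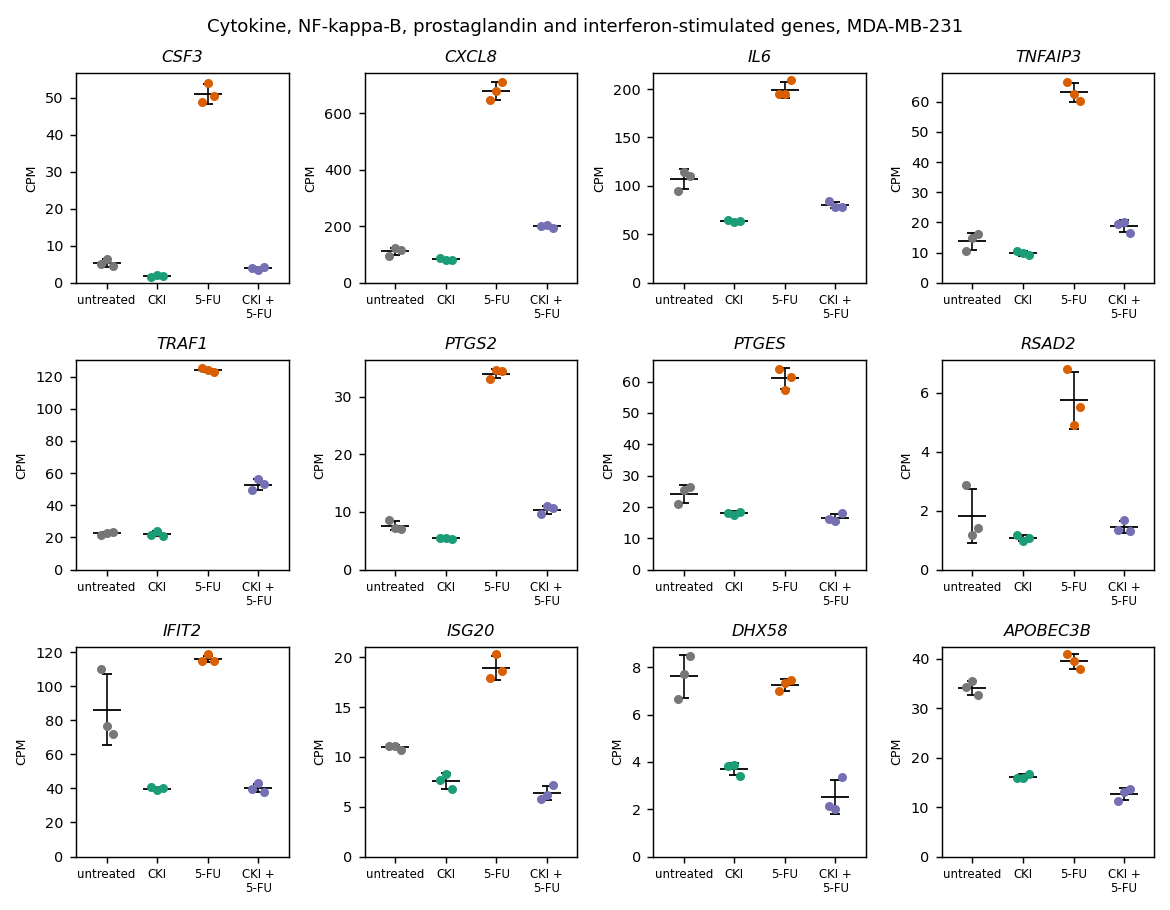
Level in CPM (linear axis from 0) of 12 cytokine, NF-kappa-B, prostaglandin and interferon-stimulated genes in the 4 MDA-MB-231 groups, 3 libraries each. Points are libraries, horizontal bars the mean and whiskers the SD. CSF3 stands at 48.8, 54 and 50.4 CPM with 5-FU and at 4.09, 3.44 and 4.22 with CKI plus 5-FU, and in all 12 panels the CKI plus 5-FU libraries lie below the 5-FU libraries.

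Interferon-stimulated genes encode antiviral effectors and the sensors of RNA and DNA that start the interferon response. 20 of 42 tested members were lower with CKI plus 5-FU and none was higher (47.6% against 4.51%), and the median log2 fold change was -0.97. At the adjusted p alone 33 were lower and 2 higher. RSAD2, the antiviral enzyme viperin, had the largest change, at 6.81, 4.91 and 5.52 CPM with 5-FU and 1.33, 1.67 and 1.31 with the combination (log2 fold change -1.99, SE 0.26, adjusted p = 6.5e-05). RSAD2 shares exonic sequence with its neighbour CMPK2, which also fell (-1.41), and unstranded reads of the pair cannot be told apart where they overlap. ISG20, an exonuclease that degrades viral RNA, fell from 17.9, 20.3 and 18.6 to 5.8, 6.19 and 7.18 CPM (log2 fold change -1.57, SE 0.1, adjusted p = 3.6e-07). IFIT2, which binds viral RNA, fell from 115, 119 and 115 to 39.9, 42.9 and 38.1 CPM (log2 fold change -1.53, SE 0.13, adjusted p = 2.1e-06). DHX58, the RNA sensor LGP2, fell from 6.99, 7.33 and 7.46 to 2.14, 2.03 and 3.35 CPM (log2 fold change -1.54, SE 0.17, adjusted p = 1.6e-05). The 5-FU and combination libraries did not overlap for any of these 4 genes.

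The sensing side of the list moved unevenly. The DNA sensor CGAS (-1.0) and its adaptor STING1 (-1.27) were lower, as were the transcription factors IRF7 (-1.19) and IRF9 (-1.46), all as log2 fold changes past both thresholds. STAT2 (-0.41), RIGI (0.15) and IFIH1 (0.0) were not called. HLA class I and peptide loading genes, which present antigen, had 13 of 16 members lower at the adjusted p alone and a median of -0.45, but none reached the fold threshold by edgeR or DESeq2 (13 had an unadjusted p under 0.05). The lowest were the immunoproteasome subunit PSMB10 (-0.97) and the peptidase ERAP2 (-0.97), while HLA-B and HLA-C were at -0.60 and -0.53. With 1 of 4 libraries left out in turn (CKI plus 5-FU replicate 2 or 3, 5-FU replicate 2 or 3), and with the GC content and length offsets, 1 HLA list member passed.

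APOBEC3 enzymes deaminate cytosine in single-stranded DNA and are counted among the interferon-inducible antiviral genes. All 5 tested members were lower at the adjusted p alone and 2 passed the fold threshold (40% against 4.51% of all genes). APOBEC3B (chr22:39378352-39388809, plus strand) was at 40.9, 39.6 and 38 CPM with 5-FU and 11.3, 13 and 13.7 with the combination (log2 fold change -1.64, SE 0.079, adjusted p = 3.0e-08). Untreated cells held 34.3, 35.5 and 32.7 CPM and CKI-treated cells 15.8, 15.9 and 16.8, so that the levels split by CKI in both backgrounds. APOBEC3D fell from 7.5, 7.48 and 8.18 to 3.38, 3.75 and 3.83 CPM (log2 fold change -1.08, adjusted p = 2.9e-05).

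Promoters of 2 lowered members are shown with the interferon-stimulated response element, searched on both strands as GAAA, 2 bases of any kind and GAAA, and marked in capitals. They were chosen after their values were seen, from RefSeq windows of 300 bases (GRCh38.p14, IFIT3 chr10:89327747-89328046, plus strand, and MX1 chr21:41420308-41420607, plus strand).
IFIT3: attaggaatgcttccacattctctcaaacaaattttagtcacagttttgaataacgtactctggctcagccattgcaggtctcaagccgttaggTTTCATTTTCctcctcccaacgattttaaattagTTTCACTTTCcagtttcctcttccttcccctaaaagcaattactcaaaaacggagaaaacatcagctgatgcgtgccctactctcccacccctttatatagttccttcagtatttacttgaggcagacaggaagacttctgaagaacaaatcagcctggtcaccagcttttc
MX1: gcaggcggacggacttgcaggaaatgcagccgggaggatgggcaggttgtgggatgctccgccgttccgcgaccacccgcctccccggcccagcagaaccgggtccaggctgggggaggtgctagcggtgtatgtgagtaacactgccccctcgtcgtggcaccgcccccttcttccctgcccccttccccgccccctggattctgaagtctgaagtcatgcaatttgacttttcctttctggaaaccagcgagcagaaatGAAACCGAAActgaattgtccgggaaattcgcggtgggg
IFIT3, an adaptor of antiviral signalling, had matches that start 156 and 122 bases before the gene start and fell by 1.11 on the log2 scale. MX1, an antiviral dynamin-like GTPase, had a match that starts 11 bases after it and fell by 1.28. The element was present in 3.65% of 27305 promoters and in 19 of 30 tested members of the list with a promoter in the table (63.3%), and 7 of the 11 called members among them held it.

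Replication and cell cycle genes fell in a narrower way. Thymidylate and ribonucleotide enzymes that are the targets of, or compensate for, 5-FU were lower with CKI, but most of the pyrimidine pathway was not. Of 33 tested members of that list 3 were lower (9.09% against 4.51%) and none higher, with a median of -0.25. At the adjusted p alone 16 were lower and 5 higher.

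TYMS, the thymidylate synthase that 5-FU inhibits (chr18:657653-673578, plus strand), was at 164, 158 and 172 CPM with 5-FU and 67.6, 66.9 and 64.6 with the combination (log2 fold change -1.31, SE 0.1, adjusted p = 1.2e-06). CKI without 5-FU gave 62.1, 61.3 and 58.9 CPM against 151, 114 and 109 in untreated cells, and the change by CKI was not shown to differ between the 2 backgrounds (interaction -0.28, adjusted p = 0.16). TK1, the salvage thymidine kinase, fell from 312, 337 and 309 to 132, 120 and 134 CPM (log2 fold change -1.31, SE 0.12, adjusted p = 3.1e-06). For TK1 the change differed from that without 5-FU, where the log2 fold change was -0.07 (interaction -1.24, adjusted p = 1.9e-04). RRM2, the regulated subunit of ribonucleotide reductase (chr2:10260825-10351851, plus strand), went from 549, 555 and 578 to 198, 211 and 191 CPM (log2 fold change -1.49, SE 0.1, adjusted p = 3.9e-07). The combination libraries lay above those of CKI alone (189, 182 and 183 CPM) and near or below those of untreated cells (280, 209 and 208 CPM), and the interaction was -1.15 (adjusted p = 1.2e-04). Enzymes that activate or clear 5-FU moved less. UMPS, UPP1, UCK2 and TYMP were at log2 fold changes of -0.27, -0.31, -0.38 and -0.17. The catabolic enzyme DPYD was at 0.46, with 43.8, 43.4 and 43.5 CPM with 5-FU and 58.6, 62.2 and 58.6 with the combination. The uracil glycosylase UNG was at -0.78.

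Origin licensing and fork genes shifted together by a small amount. 29 of 32 had a log2 fold change below 0, and the median was -0.50. 25 were lower at the adjusted p alone (78.1% against 24.5%), and 3 were called (9.38% against 4.51% of all genes). CDT1, which loads the replicative helicase onto origins (chr16:88870197-88875666, plus strand), was at 111, 108 and 105 CPM with 5-FU and 39.6, 35.5 and 39.7 with the combination (log2 fold change -1.50, SE 0.17, adjusted p = 1.8e-05). ORC1, of the origin recognition complex, fell from 54.9, 51.2 and 54.6 to 24.3, 25 and 25.6 CPM (log2 fold change -1.10, SE 0.078, adjusted p = 5.3e-07). MCM2, a helicase subunit, sat at the threshold (log2 fold change -1.01, adjusted p = 7.2e-07) and its call was lost without CKI plus 5-FU replicate 2 (-0.98) or without 5-FU replicate 1 (-0.99). MCM6 (0.45), POLA1 (0.44) and MCM3 (0.30) went the other way.

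In the G1 list 5 of 22 members were lower (22.7% against 4.51% of all genes) and none was higher. E2F8, an atypical repressor of the E2F family (chr11:19245610-19263167, minus strand), was at 61.5, 61 and 59.2 CPM with 5-FU and 13.8, 13.9 and 12.4 with the combination (log2 fold change -2.18, SE 0.09, adjusted p = 1.0e-08). Untreated cells held 26, 22.8 and 22.7 CPM, above the combination. E2F2, an activating member, fell from 15.1, 12.2 and 14.7 to 2.9, 3.07 and 3.1 CPM (log2 fold change -2.21, SE 0.16, adjusted p = 6.8e-07). CCNE2, cyclin E2, fell from 34.5, 36.9 and 36.3 to 9.42, 9.67 and 10.7 CPM (log2 fold change -1.85, SE 0.15, adjusted p = 1.5e-06). CDC25A, the phosphatase that activates CDK2, was lower too (log2 fold change -1.15). CDKN1A, the CDK inhibitor p21 (chr6:36644237-36655114, plus strand), fell as well, from 439, 447 and 444 to 174, 171 and 175 CPM (log2 fold change -1.36, SE 0.069, adjusted p = 4.5e-08). CDKN1A shares exonic sequence with the non-coding gene DINOL. Its levels were 134, 160 and 162 CPM in untreated cells and 193, 196 and 199 with CKI alone, so the 5-FU libraries lay above those of the other 3 groups. CCND1 (0.56), CDK4 (-0.11) and CDK6 (-0.11) were not called.

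The CDT1 promoter is shown because an E2F match lies near the start of a licensing gene that fell, and it was chosen after its values were seen. Capitals mark the match to TTTGGCGC or TTTCCCGC, searched on both strands in the RefSeq window (GRCh38.p14, chr16:88803539-88803838, plus strand), where it starts 35 bases before the gene start.
CDT1: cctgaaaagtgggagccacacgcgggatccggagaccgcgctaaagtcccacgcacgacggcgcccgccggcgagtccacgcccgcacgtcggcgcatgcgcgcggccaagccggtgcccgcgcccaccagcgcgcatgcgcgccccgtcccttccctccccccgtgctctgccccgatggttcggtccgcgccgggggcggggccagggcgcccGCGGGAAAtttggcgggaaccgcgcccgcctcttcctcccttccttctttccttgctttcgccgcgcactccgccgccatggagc
These letters were present in 2.31% of 27305 promoters, in 14 of 27 tested licensing members with a promoter in the table (51.9%) and in 5 of 16 such members of the G1 list, among them E2F2 and CDC25A. 1 of the 3 called licensing members and 2 of the 3 called G1 members in the table held it.

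Mitosis and repair genes were mostly shifted downwards, with few past the fold threshold. 23 of 35 mitotic genes were lower at the adjusted p alone (65.7% against 24.5% of all genes), with a median of -0.40. Only 1 was called, a share of 2.86% that was below the 4.51% of all genes. It was FOXM1, the transcription factor of G2 and M genes, at 180, 174 and 173 CPM with 5-FU and 82, 80.5 and 81.5 with the combination (log2 fold change -1.11, SE 0.085, adjusted p = 1.1e-06). ESPL1, the separase, was at -0.98 and joined it without 5-FU replicate 3 or CKI plus 5-FU replicate 3. Of 28 homologous recombination and checkpoint genes 22 were lower at the adjusted p alone (78.6%) and 2 were called (7.14% against 4.51%). CLSPN, the claspin mediator of checkpoint kinase 1, fell from 152, 139 and 151 to 58.1, 59.8 and 60.8 CPM (log2 fold change -1.31, SE 0.12, adjusted p = 4.8e-06). CDCA5, the sororin that holds sister chromatids together, was outside these lists and had one of the smallest adjusted p-values, at 361, 365 and 372 CPM with 5-FU and 124, 121 and 122 with the combination (log2 fold change -1.58, SE 0.053, adjusted p = 2.9e-09). Its level with CKI plus 5-FU matched that with CKI alone (123, 123 and 119 CPM) to within a few CPM.

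Damage and survival genes were mostly within the fold threshold. In the list of damage and stress targets 3 of 29 were lower (10.3% against 4.51% of all genes), none was higher, and the median was -0.31. Besides CDKN1A these were GDF15, a stress-induced cytokine that fell from 64.2, 69.1 and 61.5 to 15.5, 17.7 and 21.7 CPM (log2 fold change -1.83, SE 0.14, adjusted p = 1.3e-06), and BBC3, the pro-apoptotic PUMA (log2 fold change -1.19, adjusted p = 0.0011). MDM2 (-0.22), FAS (-0.19) and PMAIP1 (-0.27) were not called. BCL2A1, a pro-survival BCL2 relative, had 87, 75 and 76 counts with 5-FU and 4, 2 and 3 with CKI plus 5-FU (log2 fold change -4.69, adjusted p = 1.4e-06), a fitted change that depends on the prior count. Untreated cells and cells with CKI alone had at most 2 counts of BCL2A1, so its level was measurable chiefly with 5-FU alone. BIK, a pro-apoptotic member of the family, was lower at -1.09 and lost its call without CKI plus 5-FU replicate 1 (-0.99). BCL2, BCL2L1, MCL1 and BAX had log2 fold changes of 0.25, 0.02, -0.41 and -0.07. None of 23 death receptor, ligand and caspase genes was called by edgeR, although 14 had an unadjusted p under 0.05 and 11 were lower at the adjusted p alone. CASP10, an initiator caspase whose log2 fold change of -1.0 lay just short of the threshold, was called by DESeq2 and by edgeR without CKI plus 5-FU replicate 1 or 3 or without 5-FU replicate 2.

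**Figure D3:**
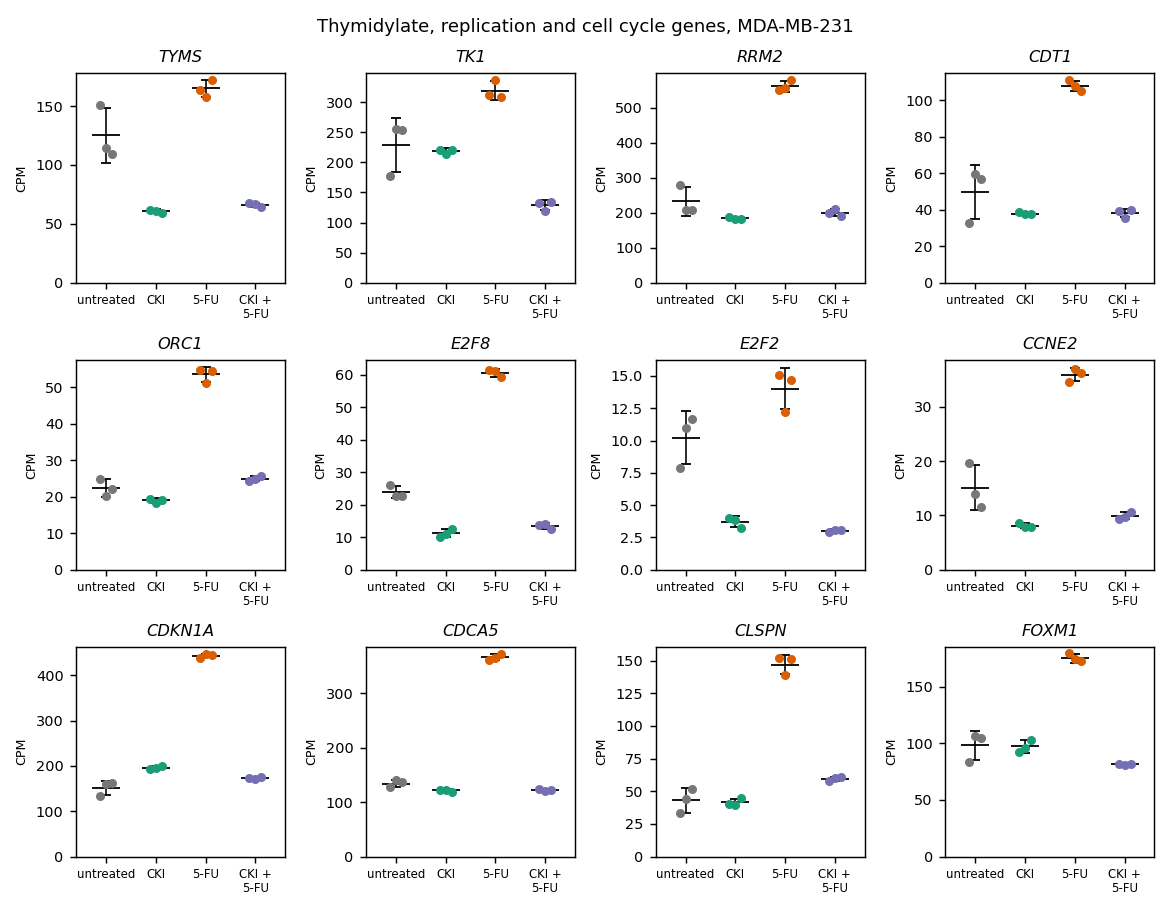
Level in CPM (linear axis from 0) of 12 thymidylate, replication and cell cycle genes in the 4 MDA-MB-231 groups, 3 libraries each, with the mean and SD. In all 12 panels the CKI plus 5-FU libraries lie below the 5-FU libraries, for RRM2 at 198, 211 and 191 against 549, 555 and 578 CPM.

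The genes that CKI raised in 5-FU-treated cells included enzymes that metabolise foreign compounds. The aryl hydrocarbon receptor is a ligand-activated factor that induces cytochrome P450 enzymes of family 1, and NRF2 induces glutathione and NADPH enzymes. Of 8 tested receptor targets 3 were higher (37.5% against 5.26%) with a median of 0.95. Of 22 NRF2 genes 5 were higher (22.7%), 18 at the adjusted p alone (81.8% against 25.9%), with a median of 0.62. Of 8 aldo-keto reductases 5 were higher (62.5%). No member of these lists was called lower.

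CYP1A1, the inducible cytochrome P450 (chr15:75011883-75017877, minus strand), was at 5.28, 5.68 and 4.75 CPM with 5-FU and 64.5, 67.6 and 68 with the combination, 12.7-fold higher (log2 fold change 3.67, SE 0.12, adjusted p = 2.9e-09). Untreated cells held 1.8, 1.07 and 0.898 CPM and CKI alone gave 95, 96.1 and 100. The log2 fold change by CKI was thus smaller with 5-FU than without it, where it was 6.28 (interaction -2.61, adjusted p = 5.0e-06). CYP1B1 (chr2:38294116-38337044, minus strand) rose from 94.7, 99.7 and 99.9 to 310, 338 and 313 CPM (log2 fold change 1.71, SE 0.09, adjusted p = 6.2e-08), close to its change without 5-FU (1.51). ALDH3A1, an aldehyde dehydrogenase, rose on few counts, 3, 2 and 1 with 5-FU and 14, 23 and 29 with the combination (log2 fold change 3.36, adjusted p = 3.4e-04), and a fitted change from so few counts depends on the prior count. The receptor AHR itself was at -0.63, and its repressor AHRR at 0.10.

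SLC7A11, the cystine importer that feeds glutathione synthesis (chr4:139085251-139163503, minus strand), was at 33.1, 34 and 33.2 CPM with 5-FU and 107, 116 and 101 with CKI plus 5-FU (log2 fold change 1.69, SE 0.065, adjusted p = 6.3e-09). Cells given CKI alone had 110, 109 and 111 CPM, so that both CKI groups were near the same level. ABCC3, an efflux pump for conjugates, rose from 10.5, 9.76 and 8.38 to 33.2, 27 and 31 CPM (log2 fold change 1.67, adjusted p = 9.5e-07). ME1, malic enzyme, rose from 18.3, 18 and 16.7 to 36.5, 44.8 and 41.4 CPM (log2 fold change 1.21, adjusted p = 2.8e-06). HMOX1 (-0.26), OSGIN1 (-0.29) and SQSTM1 (-0.14), other genes of the list, were not called.

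The aldo-keto reductases reduce ketosteroids and lipid aldehydes. AKR1C3 (chr10:5077546-5149878, plus strand) was at 20.7, 19.9 and 21.5 CPM with 5-FU and 90.2, 104 and 94.2 with the combination (log2 fold change 2.22, SE 0.22, adjusted p = 8.5e-06). AKR1B10 rose from 1.81, 1.51 and 0.775 to 8.85, 9.72 and 8.59 CPM (log2 fold change 2.72, adjusted p = 7.9e-06). AKR1C1 and AKR1C2 rose by log2 fold changes of 1.96 and 1.99, and AKR1B1 by 1.08. AKR1C1, AKR1C2 and AKR1C3 are near-identical paralogs whose reads the counting could have split, so their separate values are uncertain.

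Promoters of a member of each list are shown, chosen after their values were seen. For TXNRD1, the NADPH-dependent thioredoxin reductase, capitals mark the antioxidant response element core TGACNNNGC on either strand (RefSeq window, GRCh38.p14, chr12:104215529-104215828, plus strand). For CYP1A1, capitals mark the xenobiotic response element core GCGTG on either strand (chr15:74725479-74725778, minus strand).
TXNRD1: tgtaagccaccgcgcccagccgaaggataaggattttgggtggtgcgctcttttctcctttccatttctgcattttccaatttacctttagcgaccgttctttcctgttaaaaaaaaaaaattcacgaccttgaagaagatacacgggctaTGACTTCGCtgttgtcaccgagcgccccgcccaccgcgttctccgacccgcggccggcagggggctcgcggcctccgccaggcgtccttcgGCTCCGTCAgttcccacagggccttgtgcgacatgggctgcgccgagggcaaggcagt
CYP1A1: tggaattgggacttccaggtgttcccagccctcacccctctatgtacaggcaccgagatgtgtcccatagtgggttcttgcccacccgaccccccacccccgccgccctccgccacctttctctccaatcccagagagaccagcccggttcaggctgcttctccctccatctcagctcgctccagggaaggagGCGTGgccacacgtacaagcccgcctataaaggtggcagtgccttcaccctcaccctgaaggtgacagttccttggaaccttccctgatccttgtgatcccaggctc
TXNRD1 rose from 373, 371 and 393 to 839, 920 and 827 CPM (log2 fold change 1.19, adjusted p = 2.1e-07), and its matches start 99 and 8 bases before the gene start. The core TGACNNNGC occurred in 13.6% of 27305 promoters and in 4 of 14 tested NRF2 members with a promoter in the table, while GCGTG occurred in 36.3% of promoters and in 5 of 6 tested receptor targets. None of the 4 called aldo-keto reductases with a promoter in the table held TGACNNNGC within the window.

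Several sterol synthesis genes rose, and several LXR target and efflux genes fell. SREBP2 is the factor that induces sterol synthesis when membrane sterol is low, and LXR induces efflux transporters when oxysterols are high. Of 26 tested synthesis and uptake genes 8 were higher and none lower (30.8% against 5.26%), 21 were higher at the adjusted p alone (80.8%), and the median was 0.62. Of 11 LXR and efflux genes 4 were lower (36.4% against 4.51%) and none higher, and at the adjusted p alone 6 were lower and 1 higher.

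MSMO1, the sterol C4-methyl oxidase (chr4:166248819-166264316, plus strand), was at 47.4, 49.3 and 52.7 CPM with 5-FU and 192, 189 and 189 with the combination (log2 fold change 1.93, SE 0.091, adjusted p = 2.4e-08). FDFT1, squalene synthase, rose from 75, 71.2 and 77.9 to 202, 208 and 212 CPM (log2 fold change 1.47, SE 0.06, adjusted p = 1.0e-08). SQLE, squalene epoxidase, rose from 17, 15.3 and 16.6 to 43.5, 43.6 and 43 CPM (log2 fold change 1.41, SE 0.072, adjusted p = 4.7e-08). TM7SF2, a sterol reductase, rose from 6.53, 8.21 and 6.25 to 19.2, 17.7 and 19.7 CPM (log2 fold change 1.43, adjusted p = 1.1e-06). All 4 rose by a similar factor without 5-FU, at log2 fold changes of 1.99, 1.34, 1.52 and 1.35, and no interaction was called for any of them. HMGCS1, INSIG1, HSD17B7 and SC5D were also called.

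ABCA1, the transporter that loads cholesterol onto lipoproteins (chr9:107543287-107690436, minus strand), was at 108, 103 and 117 CPM with 5-FU and 20.1, 16.2 and 17.8 with the combination, 6.07-fold lower (log2 fold change -2.60, SE 0.11, adjusted p = 1.4e-08). ABCG1, its partner in efflux, fell from 4.54, 5.49 and 3.78 to 0.571, 0.362 and 0.291 CPM (log2 fold change -3.48, SE 0.27, adjusted p = 1.2e-06). MYLIP, a sterol-responsive ubiquitin ligase, fell from 60.4, 55.1 and 56.5 to 13.5, 14.1 and 13.4 CPM (log2 fold change -2.07, SE 0.077, adjusted p = 6.2e-09). SREBF1, the factor of fatty acid synthesis, fell from 200, 197 and 174 to 73.6, 54.7 and 75 CPM (log2 fold change -1.49, adjusted p = 0.0027). Untreated cells showed a wide spread for SREBF1, at 161, 507 and 552 CPM, with untreated replicate 1 the low library. The targets of fatty acid synthesis did not follow SREBF1. FASN (0.23), SCD (0.29) and ACLY (0.11) were not called, and in that list 1 member was higher and 1 lower of 16. The oxysterol receptor NR1H3 was at 0.06 and NPC1 at -0.16.

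Several immediate early and metallothionein genes were low with 5-FU alone and higher with the combination. FOS, a subunit of the AP-1 factor (chr14:75745529-75748933, plus strand), was at 395, 314 and 271 CPM in untreated cells, 20.9, 25.1 and 24.4 with 5-FU and 280, 258 and 244 with CKI plus 5-FU. The rise was 11.1-fold (log2 fold change 3.47, SE 0.13, adjusted p = 6.3e-09), and the combination was close to CKI alone (258, 257 and 242 CPM). FOSB rose from 7.04, 6.7 and 6.25 to 41.4, 23.9 and 26.3 CPM (log2 fold change 2.20, SE 0.23, adjusted p = 1.2e-05). EGR1 rose too (1.19), whereas FOSL2 (-1.15) and the phosphatase DUSP2 (-1.30) fell. JUN (0.62), JUNB (-0.34) and ATF3 (-0.33) were not called. Over the list 5 of 29 were higher (17.2% against 5.26% of all genes) and 2 lower (6.9% against 4.51%). At the adjusted p alone 11 were higher and 12 lower, with a median of 0.07.

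The matricellular proteins CCN1 and CCN2, targets of YAP and TEAD, rose. CCN2, connective tissue growth factor (chr6:132269316-132272512, minus strand), was at 528, 541 and 534 CPM in untreated cells, 209, 198 and 203 with 5-FU and 911, 924 and 874 with the combination (log2 fold change 2.15, SE 0.049, adjusted p = 1.9e-10). CCN1 rose from 844, 891 and 850 to 2777, 2698 and 2683 CPM (log2 fold change 1.66, SE 0.067, adjusted p = 1.0e-08). ANKRD1, a cardiac ankyrin repeat protein and pathway target, rose from 135, 139 and 139 to 487, 529 and 493 CPM (log2 fold change 1.87, SE 0.14, adjusted p = 7.0e-07). NUAK2, a kinase in the same list, fell (-1.62). Of 20 members 3 were higher (15% against 5.26%) and 1 lower (5% against 4.51%), and YAP1 (-0.15), WWTR1 (0.18) and AMOTL2 (-0.26) were not called. In the EGFR family EGFR itself rose from 168, 155 and 160 to 362, 369 and 348 CPM (log2 fold change 1.16, adjusted p = 9.5e-08), and the ligand NRG2 rose from 0.37, 0.971 and 1.02 to 3.62, 2.76 and 3.15 CPM (log2 fold change 2.01, adjusted p = 4.2e-04). They were 2 of 12 tested family members (16.7% against 5.26%), and none was called lower. In the family 3 were higher and 4 lower at the adjusted p alone, with a median of -0.06.

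Of 12 tested replication-dependent histones 5 were higher (41.7% against 5.26% of all genes) and none lower. At the adjusted p alone 7 were higher and 2, H2AC11 (-0.97) and H2BC12 (-0.70), were lower. H1-2, a linker histone, was at 40.5, 32.4 and 30.3 CPM in untreated cells, 18.8, 20.6 and 19.2 with 5-FU and 98.8, 104 and 107 with the combination (log2 fold change 2.40, SE 0.1, adjusted p = 1.4e-08). H1-4, H2BC21, H2BC4 and H4C8 rose by log2 fold changes of 1.74, 1.61, 1.54 and 1.43 from levels under 4 CPM. Histone genes are near-identical copies, and how the counting shared their reads is not given in the sources used here, so single values are uncertain.

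Metallothioneins are small cysteine-rich proteins that bind zinc and copper. MT2A (chr16:56642496-56643409, plus strand) was at 1289, 1127 and 1049 CPM in untreated cells, 481, 500 and 495 with 5-FU and 1341, 1393 and 1425 with CKI plus 5-FU (log2 fold change 1.49, SE 0.073, adjusted p = 3.1e-08). MT1E rose from 42.4, 43.3 and 41.9 to 172, 190 and 192 CPM (log2 fold change 2.12, SE 0.21, adjusted p = 6.9e-06). MT1X rose from 27.1, 26 and 25.7 to 59.1, 60.2 and 68.9 CPM (log2 fold change 1.26, SE 0.083, adjusted p = 3.2e-07). The other tested members, MT1A (-0.42) and MT1F (-0.05), were not called, and the MT1 genes are paralogs with the same reservation.

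**Figure D4:**
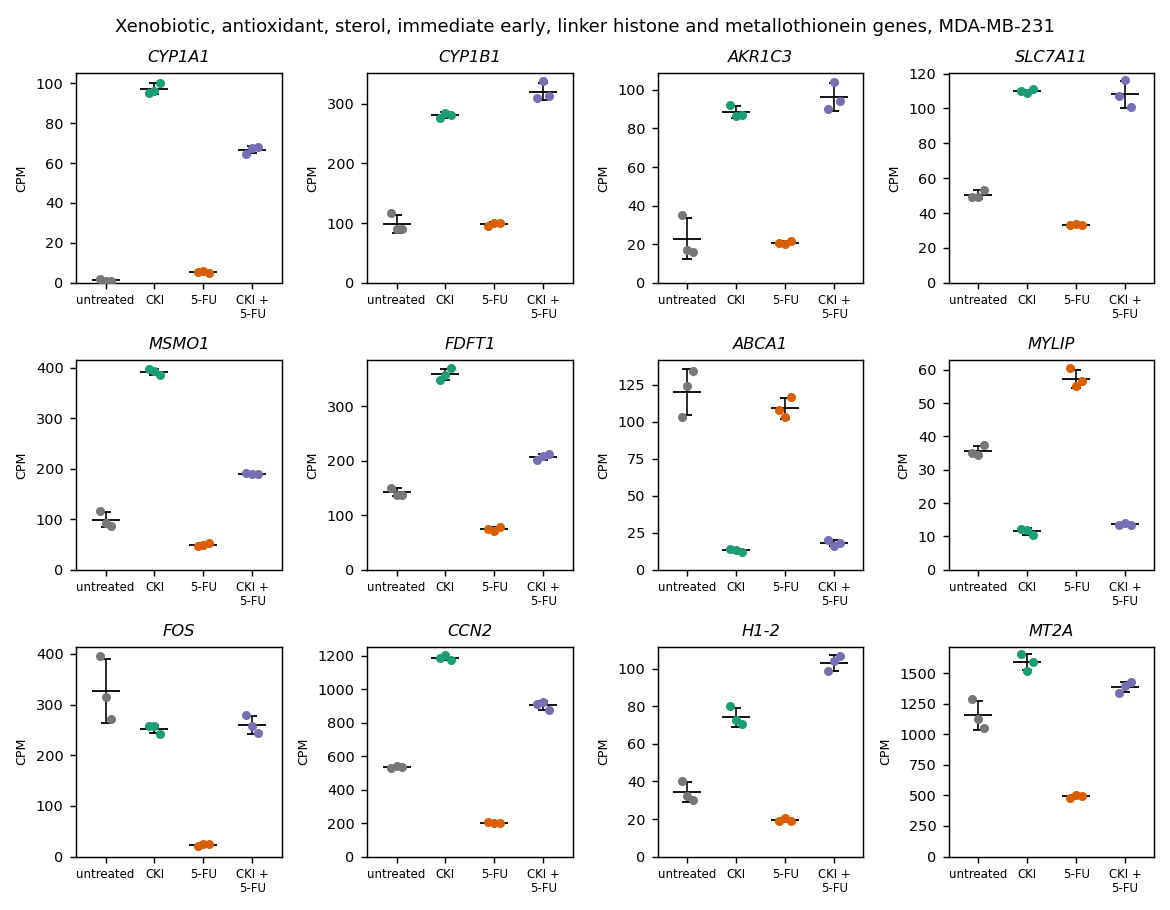
Level in CPM (linear axis from 0) of 12 genes in the 4 MDA-MB-231 groups, 3 libraries each, with the mean and SD. ABCA1 and MYLIP are lower in both CKI groups, at 20.1, 16.2 and 17.8 and 13.5, 14.1 and 13.4 CPM with CKI plus 5-FU, and the other 10 genes are higher with CKI plus 5-FU than with 5-FU, FOS at 280, 258 and 244 against 20.9, 25.1 and 24.4 CPM.

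Matrix genes split by member. COL13A1, a transmembrane collagen, was at 348, 379 and 386 CPM in untreated cells, 63.2, 60 and 60.8 with 5-FU and 203, 204 and 203 with the combination (log2 fold change 1.73, SE 0.055, adjusted p = 2.5e-09). COL15A1 moved the opposite way, from 11.7, 13 and 12.6 to 3.9, 4.16 and 3.69 CPM (log2 fold change -1.66, SE 0.12, adjusted p = 4.8e-07), with 2.22, 2.29 and 2.59 CPM in untreated cells. No other call was made among the 24 tested collagen chains (4.17% higher and 4.17% lower, near the 5.26% and 4.51% of all genes). LAMA3, a laminin alpha chain, rose from 27, 23.2 and 24 to 54, 49.5 and 51.9 CPM (log2 fold change 1.07, adjusted p = 9.8e-07), and the log2 fold change of LAMB3 was 0.08. The integrins ITGA3 (1.13) and ITGA1 (1.06) rose, but ITGA1 shares exonic sequence with PELO and other genes and fell to 0.95 with GC content and length offsets. Of 26 tested integrins and laminins 3 were higher (11.5% against 5.26%) and 2 lower (7.69% against 4.51%).

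Among 19 matrix metalloproteinases and inhibitors 5 were lower (26.3% against 4.51%) and 2 higher (10.5% against 5.26%). The called members were scarce, each below 2 CPM in every library of the comparison, and none remained when at least 10 counts were required in every library. MMP1, the interstitial collagenase (chr11:102660132-102668891, minus strand), was at 300, 300 and 313 CPM with 5-FU and 391, 422 and 425 with the combination (log2 fold change 0.44), within the fold threshold. MMP14 (-0.43), TIMP1 (0.30) and TIMP2 (-0.11) were not called, nor was any of 11 plasminogen activator genes by edgeR or DESeq2. Of those 5 had an unadjusted p under 0.05, 3 were higher and 2 lower at the adjusted p alone, and 1 passed without CKI plus 5-FU replicate 1. ID proteins inhibit basic helix-loop-helix factors downstream of BMP. ID3 fell from 10.8, 12.5 and 10.2 to 3.43, 3.12 and 3.4 CPM (log2 fold change -1.75, adjusted p = 2.1e-06) and ID2 from 1.62, 1.51 and 1.55 to 0.666, 0.723 and 0.534 CPM (log2 fold change -1.27, adjusted p = 6.5e-04), while NOG, the BMP antagonist noggin, rose from 23.5, 23.8 and 20.7 to 69.9, 62.7 and 71.2 CPM (log2 fold change 1.58, adjusted p = 1.1e-07). BMP2 fell (-1.11), with a log2 fold change of -0.97 without CKI plus 5-FU replicate 3. Of 26 tested genes of ID proteins and BMP and TGF-beta signalling 1 was called higher (3.85% against 5.26%) and 3 lower (11.5% against 4.51%). In that list 11 were higher and 10 lower at the adjusted p alone.

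Stress programmes other than these were largely within the threshold. In the ATF4 list 2 of 31 members were higher (6.45% against 5.26% of all genes) and 3 lower (9.68% against 4.51%), and the median was -0.28. The lower ones were the chromatin regulator NUPR1, from 15, 15.5 and 15.4 to 4.66, 4.97 and 4.66 CPM (log2 fold change -1.68, adjusted p = 1.0e-07), the amino acid transporter chain SLC3A2, from 608, 606 and 609 to 263, 270 and 275 CPM (log2 fold change -1.17, adjusted p = 6.2e-08), and the serine synthesis enzyme PHGDH (log2 fold change -1.16, adjusted p = 3.4e-05). STC2 rose (log2 fold change 1.35, adjusted p = 0.0045), besides SLC7A11 above. ATF4 (-0.24), DDIT3 (0.07) and ASNS (-0.28) were not called. Among 21 heat shock genes HSPA6 (-2.34, 51, 38 and 43 counts with 5-FU and 12, 4 and 10 with the combination) and HSPB1 (-1.03, and -0.94 without CKI plus 5-FU replicate 2) were lower (9.52% against 4.51%). None of 24 unfolded protein response genes, 56 respiratory chain subunits, 76 ribosomal proteins or 43 ribosome biogenesis genes was called by edgeR or DESeq2, while 14, 23, 28 and 23 of them had an unadjusted p under 0.05. At the adjusted p alone 10, 7, 22 and 15 of these were lower and 2, 11, 2 and 4 higher. Leaving out CKI plus 5-FU replicate 1 called 1 respiratory chain subunit, NDUFA13. In the glycolysis and hypoxia list ANGPTL4 (log2 fold change 1.86, adjusted p = 2.1e-08) and PDK1 (log2 fold change 1.26, adjusted p = 6.9e-07) rose. They were 2 of 32, near the share of all genes (6.25% against 5.26%), and 4 passed without 5-FU replicate 1. Among 42 lysosomal genes the protease CTSS fell from 40.6, 39.3 and 46.3 to 12.4, 15 and 13.9 CPM (log2 fold change -1.61, adjusted p = 7.8e-07) and the proton pump subunit ATP6V0D2 from 9.4, 7.19 and 8.09 to 2.33, 2.67 and 2.62 CPM (log2 fold change -1.69, adjusted p = 9.8e-06). CTSS and ATP6V0D2 were 4.76% of the lysosomal list, near the 4.51% of all genes. Of 19 epithelial and mesenchymal regulators 1 was called lower (5.26%, near the 4.51% of all genes). It was CDH1, the epithelial cadherin, at under 2 CPM (-1.39). CDH1 lost the call without 5-FU replicate 1 (-0.80) or without any 1 of the 3 CKI plus 5-FU libraries (-1.34 to -1.42). Without 5-FU replicate 3 the list had 3 calls, CDH1, CDH3 and ESRP1, all epithelial genes that were scarce in this line. VIM (-0.48), ZEB1 (0.41) and SNAI2 (-0.34) were not called.

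Some of the largest or most precise changes were in genes outside the lists. LGALS9, the immune lectin galectin 9, fell from 9.08, 9.08 and 9.39 to 0.571, 0.633 and 0.728 CPM (log2 fold change -3.82, SE 0.17, adjusted p = 1.9e-08). LCN2, lipocalin 2, which binds bacterial siderophores, fell from 9.49, 9.03 and 9.25 to 0.856, 0.407 and 0.679 CPM (log2 fold change -3.83, SE 0.45, adjusted p = 2.6e-05). PDE4B, a cyclic AMP phosphodiesterase, fell from 24.7, 25.5 and 25.4 to 4.28, 4.38 and 4.03 CPM (log2 fold change -2.57, adjusted p = 8.8e-08). All 3 were thus lowered to under 5 CPM. EMP3, a membrane protein of the PMP22 family, had the smallest adjusted p of the genes that fell, at 382, 399 and 389 CPM with 5-FU and 113, 110 and 116 with the combination (log2 fold change -1.79, SE 0.054, adjusted p = 1.7e-09). DUSP10, a phosphatase for p38 and JNK, fell from 70.5, 68.1 and 74.5 to 24.4, 24.9 and 23.9 CPM (log2 fold change -1.54, adjusted p = 1.1e-08). STC1, the hormone stanniocalcin 1, fell from 389, 397 and 409 to 171, 177 and 175 CPM (log2 fold change -1.19, adjusted p = 1.2e-08). These 3 remained well expressed in the combination. RHOV, an atypical small GTPase, fell from 7.83, 7.38 and 9.1 to 0.951, 0.995 and 1.79 CPM (log2 fold change -2.70, adjusted p = 1.1e-06).

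On the higher side, ZNF582, a zinc finger gene, rose from 0.37, 0.389 and 0.823 to 5.09, 7.5 and 5.14 CPM (log2 fold change 3.48, adjusted p = 1.0e-06). KRTAP2-3, a keratin-associated protein with close paralogs, rose from 4.26, 4.61 and 5.28 to 28.7, 29.7 and 30.8 CPM (log2 fold change 2.65, adjusted p = 1.0e-08). FBXO2, which recognises glycoproteins for degradation, rose from 2.36, 1.65 and 2.18 to 13.7, 12.3 and 13.6 CPM (log2 fold change 2.67, adjusted p = 9.4e-08). These 3 genes were at under 6 CPM in every 5-FU library. TRIM16L rose from 36.2, 35.8 and 36.4 to 109, 121 and 116 CPM (log2 fold change 1.67, adjusted p = 6.2e-09). VIPR1, the receptor of vasoactive intestinal peptide, rose from 12.9, 13.4 and 11.6 to 49.4, 45.3 and 49.9 CPM (log2 fold change 1.93, SE 0.071, adjusted p = 6.2e-09), with 77.1, 79.6 and 74.8 CPM in untreated cells. Of the 131 named genes, 51 share exonic sequence with another annotated gene, TYMS with ENOSF1 and IFIT2 with LIPA among them, and unstranded reads there cannot be assigned to one gene.

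The last comparison asked whether CKI acted alike with and without 5-FU. CKI against untreated cells used no library of the comparison above and called 835 genes (5.96%), 526 higher (3.76%) and 309 lower (2.21%). 208 genes were higher in both comparisons, which is 28.3% of those higher with 5-FU and 39.5% of those higher without it. 143 were lower in both, 22.6% of those lower with 5-FU and 46.3% of those lower without it, and 12 were called in opposite directions. Over 13999 genes the log2 fold changes had a Pearson r of 0.44 and a Spearman rank correlation of 0.38, which describes genes of 12 libraries of similar depth and not independent replicates.

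The difference of the 2 CKI changes was tested directly, as an interaction over all 12 libraries, and 958 genes were called (6.84%), 425 more positive with 5-FU (3.04%) and 533 more negative (3.81%). Of the 1368 genes called in 5-FU-treated cells 460 (33.6%) were also called in the interaction, 231 more positive and 229 more negative, and 696 (50.9%) passed the adjusted p of the interaction alone. The interaction contains the change in 5-FU-treated cells and all its libraries, so a call for that change favours an interaction call. These 2 shares therefore do not measure how far CKI acted alike in the 2 backgrounds. Genes for which a difference was not shown at either threshold included TRIM16L, CYP1B1, AKR1C3, MSMO1, FDFT1, SQLE, ABCG1 and IFIT2. APOBEC3B, MYLIP and ABCA1 had smaller differences that passed the adjusted p alone, with interactions of -0.57 (adjusted p = 0.0025), -0.43 (adjusted p = 0.01) and 0.60 (adjusted p = 0.011).

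Named genes with a called interaction showed several patterns of levels. In one, FOS, COL13A1, VIPR1, MBP and DYNC2I1 were not called with CKI alone (log2 fold changes of -0.37, -0.12, 0.02, -0.14 and -0.19) and rose in 5-FU-treated cells. MBP was at 150, 145 and 153 CPM in untreated cells, 47.2, 45 and 47.6 with 5-FU and 120, 122 and 121 with the combination, and DYNC2I1, a dynein 2 chain, at 38.9, 39.1 and 40.5, 10.3, 10.7 and 10.1 and 28.9, 26.8 and 28. In another, CDKN1A, CDCA5, STC1, CXCL8, PTGES, TRAF1 and GDF15 were not called with CKI alone (0.37, -0.14, 0.21, -0.42, -0.43, -0.01 and -0.17) and fell in 5-FU-treated cells. CSF3, LGALS9 and E2F8 were already lower with CKI alone (-1.53, -2.02 and -1.08) and fell by more with 5-FU present, with interactions of -2.18, -1.81 and -1.10. CCN2 and H1-2 were already higher with CKI alone (1.15 and 1.11) and rose more with 5-FU present, with interactions of 1.0 and 1.29.

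For the secreted factors MMP1, IL11 and TNFSF15, CKI alone raised the gene and the rise was smaller or absent with 5-FU. MMP1 was at 30.3, 26.6 and 27.7 CPM in untreated cells, 210, 218 and 220 with CKI alone, 300, 300 and 313 with 5-FU and 391, 422 and 425 with both. Its log2 fold change by CKI was 2.94 without 5-FU and 0.44 with it (interaction -2.50, adjusted p = 1.5e-08). IL11, a cytokine of the interleukin 6 family, was at 51.8, 64.9 and 60.4 CPM untreated, 243, 258 and 240 with CKI, 313, 324 and 312 with 5-FU and 278, 256 and 268 with both (interaction -2.30, adjusted p = 1.6e-07). TNFSF15, a ligand of the tumour necrosis factor family, stood at 19.4, 21.5 and 20.8, 91, 108 and 104, 98, 99 and 105 and 126, 132 and 126 CPM in the same order (interaction -1.94, adjusted p = 2.7e-07). IL24 had an interaction of -2.27 (adjusted p = 3.4e-06) although it still rose with both agents, as did CYP1A1. For these genes the 3 treated groups were all above untreated cells, and the order of the treated groups differed from gene to gene.

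5-FU against untreated cells called 1866 genes (13.3%), 842 higher (6.01%) and 1024 lower (7.31%) with TMM, and 1142 higher and 768 lower with library size alone. It shares the 5-FU libraries with the main comparison, so the values are given side by side and no overlap is drawn. With 5-FU alone CSF3, CXCL8, TNFAIP3, TRAF1 and PTGS2 had log2 fold changes of 3.24, 2.61, 2.19, 2.46 and 2.15 against untreated cells, and -3.70, -1.76, -1.75, -1.23 and -1.70 when CKI was added. CDKN1A, RRM2, E2F8, CLSPN and CCNE2 had 1.54, 1.27, 1.35, 1.78 and 1.25, and then -1.36, -1.49, -2.18, -1.31 and -1.85. FOS, COL13A1, VIPR1, MT1E and CCN2 had -3.80, -2.60, -2.61, -2.34 and -1.39, and then 3.47, 1.73, 1.93, 2.12 and 2.15. These genes were chosen after their values were seen, and the shared 5-FU libraries favour opposite signs. Other named genes moved the same way in both, among them CYP1A1 (2.07, then 3.67), IL24 (3.63, then 1.31), KRTAP2-3 (1.09, then 2.65) and PHGDH (-1.13, then -1.16). A general reversal of the 5-FU change was not tested. In the sterol synthesis and uptake list 5-FU alone called 5 of 26 members lower and 0 higher, with a median of -0.48. TM7SF2 was among the called (-1.27), and MSMO1 (-0.99), FDFT1 (-0.92) and SQLE (-0.50) were short of the fold threshold.

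**Figure D5:**
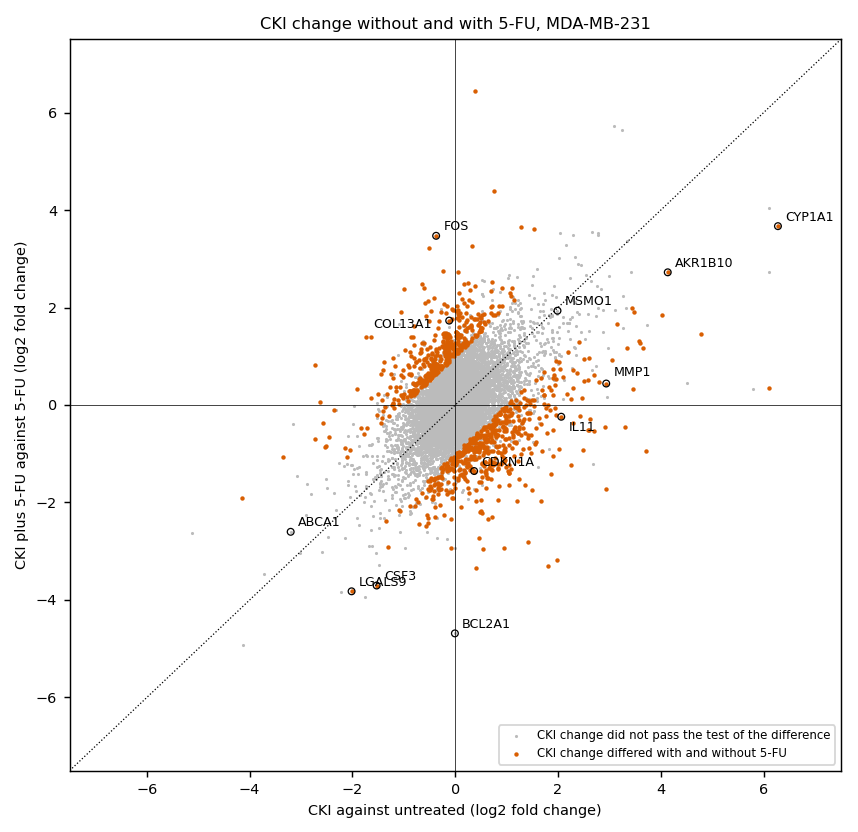
Log2 fold change by CKI without 5-FU (horizontal axis) against that with 5-FU (vertical axis) for the genes tested, 2 of 13999 lying outside the axes; orange points are the 958 genes whose change differed between the 2 settings. The dotted diagonal marks equal change. FOS lies at -0.37 and 3.47, CYP1A1 at 6.28 and 3.67, and MMP1 at 2.94 and 0.44.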

How the data were processed

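The deposited table held raw read counts per gene, which the authors made from reads trimmed with Trim Galore 0.3.7 and aligned to hg19 with STAR 2.5.3a, per the labels' processing notes, which also name edgeR. The read counter and annotation are not given in the sources used here. The table had 24566 rows under Entrez identifiers, of which 1597 had no count in any library. 24422 were matched to symbols by the RefSeq table. 194 Ensembl genes were spread over 416 Entrez rows with identical counts. 0 columns belonged to other samples.

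Genes passing filterByExpr over the 12 MDA-MB-231 libraries were fitted with edgeR 4.0.16 (R 4.3.3), TMM scaling and glmQLFit, with one estimate of the spread for the 4 groups and glmQLFTest for each contrast. CPM values are counts scaled by the TMM-adjusted library total. Coordinates and exon overlap came from GENCODE v44lift37 (GRCh37, the same build as hg19), promoters from RefSeq (GRCh38.p14). Of 964 tested list genes, 762 had a promoter in the table. Scripts were tested on simulated data.

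The members and the 44 gene lists were chosen with earlier results of these data known, so no list was given a test. Named genes were the 8 called genes of smallest adjusted p and the 6 of largest change per direction (at least 5 CPM in 1 group, libraries not overlapping), the 4 of largest change per list and direction, and the 6 per direction of smallest adjusted p in the interaction. List members named beyond this rule were chosen after their values were seen. Some genes that the rule names are not reported here. Alternatives were RLE size factors, library size alone, DESeq2 1.42.0, a likelihood ratio test, other filters, offsets for GC content and length, a replicate block, the 2 compared groups alone, and each library left out. Per-library precision is limited by counting error, with a floor of 3 counts, and by spread beyond it. The chi-square per degree of freedom between 2 replicates is near 1 for counting error alone. It was 2.31 to 4.79 within 5-FU and CKI plus 5-FU, and 72.9 to 84.1 for pairs with untreated replicate 1.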

Additional observations from a re-analysis of the deposited data

Results flagged for a closer look

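By edgeR's test of the interaction, 958 genes responded to CKI differently according to the presence of 5-FU, 425 more positive with 5-FU and 533 more negative. Genes of small adjusted p among the more positive were FOS, with a log2 difference of 3.84, VIPR1 with 1.91, COL13A1 with 1.85, DYNC2I1 with 1.62 and MBP with 1.51. Among the more negative they were RPL13AP20 with -3.41, MMP1 with -2.50, IL11 with -2.30, TNFSF15 with -1.94, CDCA5 with -1.44 and STC1 with -1.40. RPL13AP20 is a pseudogene of a ribosomal protein gene, at 3.81, 3.45 and 4.24 CPM in untreated cells, 20.8, 22.2 and 21.6 with CKI, 31.4, 31.6 and 30 with 5-FU and 16.3, 16.2 and 16.5 with both, and reads of its parent gene could be counted there, so its value is uncertain. Leaving out untreated replicate 1, 2 or 3 gave 1062, 1032 and 1086 calls, and leaving out any 1 of the other 9 libraries gave 850 to 936.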

How the results depend on the processing

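For CKI plus 5-FU against 5-FU, 1368 genes were called, 7059 at the adjusted p alone and 903 when at least 10 counts were required in every library, a setting that tests fewer genes. The interaction gave 958 and 4396 at the adjusted p alone. CKI against untreated gave 835, 5066 at the adjusted p alone and 504 with at least 10 counts. 5-FU against untreated gave 1866 and 7992 at the adjusted p alone. Its calls were 842 higher and 1024 lower with TMM, and 1142 and 768 with library size alone. Leaving out 1 library in turn gave 1326 to 1379 calls for CKI plus 5-FU against 5-FU, DESeq2 gave 1365, and the fit without untreated replicate 1, added after seeing the data, gave 1478. Same-numbered 5-FU and combination libraries correlated at -0.09 to 0.06 over 3 pairs, in their deviations from the group means. So few pairs cannot show whether a number marks a shared batch. The replicate block gave 1358 calls, with 911 for the interaction, 815 for CKI and 1841 for 5-FU. Of the 127 named genes called in 5-FU-treated cells, 11 lost the call under at least 1 of 18 settings that tested them (30 of 2260 gene and setting pairs). None changed direction. Pairs in which a setting did not test the gene are left out of this count. They include scarce genes when at least 10 counts were required in every library, so the 11 understates the genes not called under every setting. 45 of 792 list counts moved by over 1.5 times, in lists with few calls or with scarce members. Genes near 3 counts, such as MMP13 and CXCL10, are limited by depth.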
